A study of Mus musculus with 13 samples.

Results

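The genes described here encode the complement proteins and complement receptors of bone marrow-derived macrophages (BMDMs): the C1q chains C1qa, C1qb and C1qc, the cascade components C2, C3, Cfb and Cfp, and the anaphylatoxin receptors C3ar1 and C5ar1. They are 9 of the 24445 gene symbols in the count table. Each symbol was represented by its RefSeq transcript with the highest total count, and all 9 passed the filter on low counts. The symbols were chosen for their roles, with earlier results of these data known.

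Gene expression was measured by RNA-seq in BMDMs from female C57Bl/6J mice that were grown for 7 days in medium with L929-conditioned supernatant and then given lipopolysaccharide (LPS), a bacterial wall component that activates Toll-like receptor 4, at 100 ng/mL. AclyM-KO cells came from mice with loxP sites around exon 9 of Acly that carried Cre driven by the myeloid Lyz2 (LysM) promoter, whereas the controls, called WT in the labels, are Acly fl/fl in the study's text; whether they carried Cre is not given in the sources used here. There were 3 control and 3 AclyM-KO libraries at 3 h LPS, and 4 control and 3 AclyM-KO libraries at 24 h LPS. The ages of the mice are not given, and nothing in the labels ties the replicates to separate mice or cultures, so p-values measure the spread between these samples, which may be technical. Unstimulated cells were not analysed here, so a change with time is one between 3 h and 24 h of LPS.

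Complement is a cascade of plasma proteins that tags microbes and dying cells for uptake and releases peptides that attract and activate leukocytes. C1q, built from A, B and C chains, starts the classical pathway and is made largely by macrophages rather than by the liver. C2 is the protease of the classical and lectin C3 convertase, factor B (Cfb) its counterpart in the alternative pathway, and properdin (Cfp) stabilises the alternative convertase. C3 is the component on which all pathways converge, and its fragment C3a and the C5 fragment C5a signal through C3ar1 and C5ar1.

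All 9 genes lie on the minus strand of GRCm38, the assembly also called mm10 (GENCODE M21). C1qb (chr4:136880129-136886187), C1qc (chr4:136889804-136893065) and C1qa (chr4:136895917-136898803) are neighbours on chromosome 4. Cfb (chr17:34856374-34862518) and C2 (chr17:34862604-34898265) lie end to end on chromosome 17, with 85 bases between them. C3 (chr17:57203970-57228136), Cfp (chrX:20925454-20931555), C3ar1 (chr6:122847138-122856161) and C5ar1 (chr7:16246743-16259540) stand apart from these. The annotation places Zbtb12 on the opposite strand within C2, small microRNA genes within C3 and Cfb, and the predicted gene Gm20547 across C2 and Cfb. The strand setting of the counting is not given in the sources used here, so counts of C2 in particular could include those of its overlapping partners.

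Promoter windows from RefSeq, on GRCm38.p6, were matched for 6 of the 9 symbols, which excludes C1qa, C2 and Cfb. The 250 bases before the annotated start are given for 4 of them: C3, which was higher at 24 h than at 3 h in AclyM-KO cells, C1qb and Cfp, which were lower at 24 h, and C3ar1, whose values at 3 h and 24 h lay close together. They are chr17:57228137-57228386 (C3), chr4:136886201-136886450 (C1qb), chrX:20931556-20931805 (Cfp) and chr6:122856158-122856407 (C3ar1), written 5′ to 3′ on the minus strand, with the matches to the searched letters in capitals.
C3: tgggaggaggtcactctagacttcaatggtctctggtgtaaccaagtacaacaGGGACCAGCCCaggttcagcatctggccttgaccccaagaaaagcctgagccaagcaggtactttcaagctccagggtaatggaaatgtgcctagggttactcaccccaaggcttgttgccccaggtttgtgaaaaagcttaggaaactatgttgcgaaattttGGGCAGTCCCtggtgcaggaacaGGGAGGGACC
C1qb: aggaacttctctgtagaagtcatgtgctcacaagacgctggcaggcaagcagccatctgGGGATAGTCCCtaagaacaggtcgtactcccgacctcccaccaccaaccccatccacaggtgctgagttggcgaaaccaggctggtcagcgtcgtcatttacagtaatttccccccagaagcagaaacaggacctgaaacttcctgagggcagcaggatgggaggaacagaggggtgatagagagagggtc
Cfp: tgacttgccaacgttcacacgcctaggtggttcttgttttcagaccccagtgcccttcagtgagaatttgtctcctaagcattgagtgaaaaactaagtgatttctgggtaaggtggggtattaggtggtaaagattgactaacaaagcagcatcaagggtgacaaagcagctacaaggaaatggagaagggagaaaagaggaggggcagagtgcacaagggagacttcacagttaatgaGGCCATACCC
C3ar1: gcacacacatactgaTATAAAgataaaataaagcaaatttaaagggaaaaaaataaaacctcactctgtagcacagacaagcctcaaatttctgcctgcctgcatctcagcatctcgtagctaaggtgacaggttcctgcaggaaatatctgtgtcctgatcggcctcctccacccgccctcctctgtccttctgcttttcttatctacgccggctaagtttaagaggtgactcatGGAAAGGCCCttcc
The searched patterns were 4, each looked for on both strands of the 300-base windows, which also hold the 50 bases after the start. The NF-kB-like pattern, GGG and CC with any 5 bases between them, is found in 50.8% of 32851 RefSeq promoter windows of that length. In C3 it lay at bases 197 to 187, 33 to 24 and 10 to 1 before the start, the farthest of these being overlapping matches on both strands. In C1qb it lay at bases 191 to 181, in Cfp at 10 to 1 and in C3ar1 at 14 to 5. C1qc also held it, at bases 41 to 31, and C5ar1 did not. All 4 windows shown thus hold this pattern, and that of C5ar1, the gene that fell furthest with time, is not shown. TATAAA, in 13.6% of all windows, lay in the C3ar1 window at bases 235 to 230 before the start and in the C3 window with its last base 20 bases into the transcript. Neither an interferon-response-like pattern, GAAA repeated after any 2 bases (3.44% of windows), nor a STAT-like one, TTC and GAA with any 3 bases between them (8.3%), was found in the 6 windows. These are descriptions of letters, not of binding.

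One library had to be set apart before any comparison. The library labelled control 24 h replicate 1 held 34467 counts, against 21274102 to 24645825 in 11 of the others and 59577343 in control 24 h replicate 4. At that depth, the level of the control 24 h libraries would give 19.99 counts of Cfb, and the level of the control 3 h libraries 0.881. It held 1 count (95% Poisson interval 0.0253 to 5.57, counting error only). For C5ar1 it held 9 counts (interval 4.12 to 17.1), where the 24 h level would give 2.00 and the 3 h level 12.1. For C1qc it held 21 counts (interval 12.999 to 32.1), where the 24 h level would give 8.16 and the 3 h level 21.03. For C3 it held 34 counts (interval 23.5 to 47.5), where the 24 h level would give 56.8 and the 3 h level 30.6. Its Cfb, C5ar1, C1qc and C3 counts thus went against its label, with intervals that held the control 3 h level and not the control 24 h level. Lyz2, with 67 counts (interval 51.9 to 85.1), lay below both the control 3 h level of 164 and the control 24 h level of 92.5. The Lyz2 count thus matched neither control group. The AclyM-KO 3 h libraries held 51970 to 57901 counts of Lyz2, against 104706 to 112573 in the control 3 h libraries. Whether the library of 34467 counts matched an AclyM-KO group was not tested. The counts of C1qa (3), C1qb (19), Cfp (10) and C3ar1 (27) had intervals that held both levels, and C2 had 0 counts, which allows up to 3.69. The main results rest on the other 12 libraries, and with all 13 the number of the 9 genes past both thresholds was the same in every comparison given here.

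**Figure D1:**
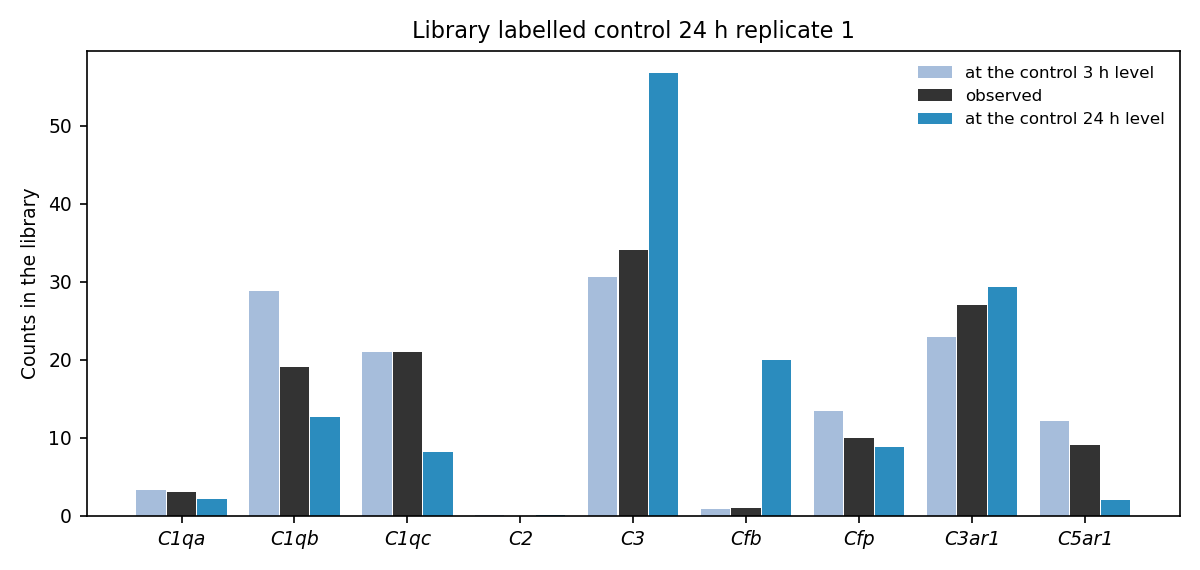
Counts of the 9 genes (vertical axis) in the library labelled control 24 h replicate 1 (dark bars), beside the counts that a library of the same depth would hold at the mean level of the 3 control 3 h libraries (light bars) or of the other 3 control 24 h libraries (blue bars). The observed bar stands near the 3 h bar for Cfb, C1qc and C3.

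The targeted gene was lower in every AclyM-KO library. Acly, the enzyme that makes cytosolic acetyl-CoA from citrate, was at 105, 107 and 106 CPM (counts scaled by TMM to a common library size) in the control 3 h libraries and at 37.7, 46.2 and 41.5 CPM in the AclyM-KO 3 h libraries. It was at 113, 109 and 107 CPM in the control 24 h libraries and at 30.1, 30.5 and 29.1 CPM in the AclyM-KO 24 h libraries. The groups did not overlap, and the change was -1.34 on the log2 scale at 3 h (SE 0.06, adjusted p = 6.41e-16) and -1.88 at 24 h (SE 0.06, adjusted p = 4.81e-20) by edgeR's quasi-likelihood test with Benjamini-Hochberg adjustment. Counts were given per transcript, not per exon, so RNA without exon 9 could still be counted. The source of the remaining Acly counts was not tested. Lyz2, the gene whose promoter drives Cre, also fell, by 0.97 (SE 0.07, adjusted p = 1.1e-07) and 1.40 (SE 0.07, adjusted p = 1.91e-09) on the same scale in edgeR. The Cre status of the controls is not given. In the genotype comparisons, Acly loss therefore cannot be told apart from Cre or from the lower Lyz2.

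Adjusted p-values below are from that test over 19621 transcript rows, and a gene is said to have risen or fallen where its adjusted p was under 0.05 and its log2 fold change beyond 0.75, the fold threshold of the study's methods. In bulk RNA, fewer cells of a type and less RNA per cell cannot be told apart.

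The comparison of genotypes asks how complement expression under LPS differed between AclyM-KO and control cells. At 24 h, C1qa and C5ar1 fell in AclyM-KO cells and none of the 9 genes rose. C1qb, C1qc and Cfp were also lower with an adjusted p under 0.05 but a smaller fold, whereas C2, C3, Cfb and C3ar1 did not pass the test. The 2 of 9 genes called compare with 1.38% of the 11942 genes tested, 0.896% higher and 0.486% lower. At an adjusted p under 0.05 and any fold, the count was 5 of 9, all lower, against 13.9% of all genes. The median log2 fold change was -0.42 over the 9 genes and 0.01 over all genes.

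At 3 h, 0 of the 9 genes were called, against 2.01% of all genes, 1.41% higher and 0.603% lower. At any fold, edgeR gave 4 genes an adjusted p under 0.05, against 15.4% of all genes, with the C1q chains lower and C5ar1 higher. With all 13 libraries C1qc (adjusted p = 0.0522) and C5ar1 (adjusted p = 0.0771) no longer passed in edgeR, which left C1qa and C1qb. At an unadjusted p under 0.05 in the 12 libraries, the 4 genes were joined by C2 and C3ar1, and DESeq2 also called 0 genes. The median log2 fold change was -0.10 over the 9 genes and -0.01 over all genes. The libraries of the genotypes did not overlap for 6 of the 9 genes at 3 h, against 30.1% of all genes, and for 6 of 9 at 24 h, against 33.0%.

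The genotype effect differed between the time points for 5 of the 9 genes, C1qa, C1qb, C1qc, Cfp and C5ar1. For C1qa, C1qb, C1qc and Cfp the log2 fold change was more negative at 24 h than at 3 h. For C5ar1 it went from above 0 to below 0. This test of the difference itself, the genotype-by-time interaction in edgeR at an adjusted p under 0.05 and any fold, called 9.59% of all genes, 4.88% higher and 4.71% lower. The median difference was -0.29 over the 9 genes and 0.01 over all genes. All 5 calls were also made with the 13 libraries together.

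**Figure D2:**
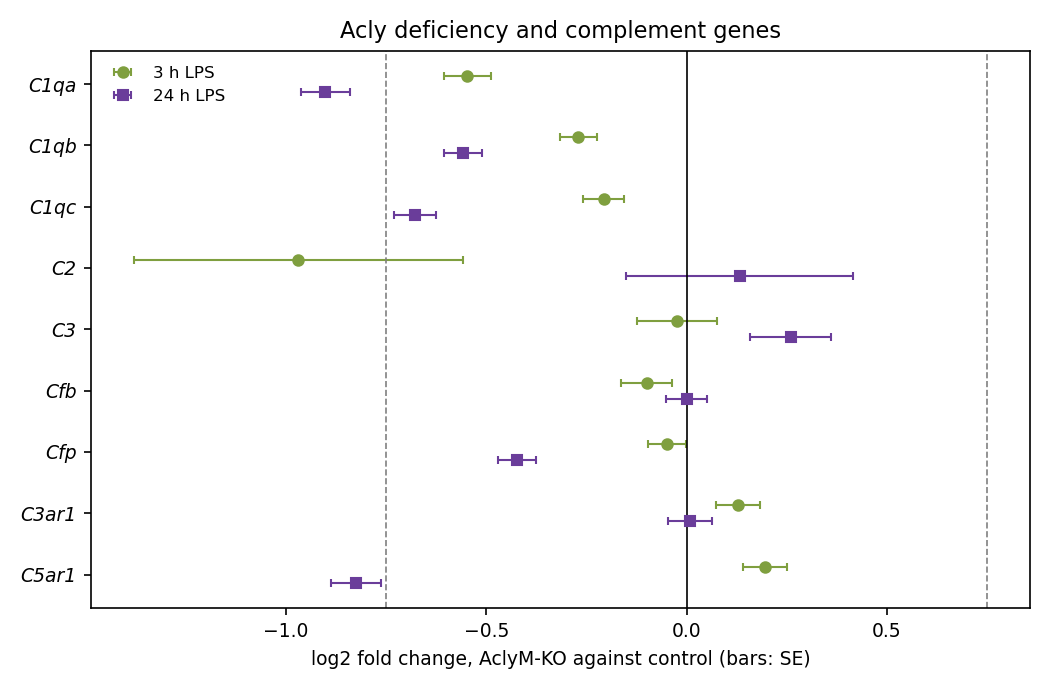
Log2 fold change of AclyM-KO against control (horizontal axis) for each gene at 3 h (circles) and 24 h LPS (squares), with standard errors as bars and the fold threshold of 0.75 as dashed lines, from 12 libraries. C1qa (-0.90) and C5ar1 (-0.83) lie beyond the threshold at 24 h, and C5ar1 lies above 0 at 3 h (0.20).

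The C1q chains were lower in AclyM-KO cells at both time points. C1qa, the A chain, was at 110, 99.5 and 109 CPM in the control 3 h libraries and at 75.9, 68.2 and 74.0 CPM in the AclyM-KO 3 h libraries. At 24 h it was at 60.2, 56.3 and 54.9 CPM in control cells and at 31.5, 30.2 and 29.9 CPM in AclyM-KO cells. Each AclyM-KO library lay below each control library of its time point, and the AclyM-KO 3 h libraries lay above all control 24 h libraries. The change with genotype was -0.55 (SE 0.06, adjusted p = 6.58e-08, edgeR) at 3 h and -0.90 (SE 0.06, adjusted p = 1e-11, edgeR) at 24 h, that is 1.46-fold and 1.87-fold lower. The log2 fold change was more negative at 24 h than at 3 h, with a difference of -0.35 (SE 0.08, adjusted p = 0.00659, edgeR).

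C1qb, the B chain, was at 937, 904 and 908 CPM in control and 778, 721 and 781 CPM in AclyM-KO libraries at 3 h. At 24 h it was at 336, 337 and 329 CPM in control and 234, 216 and 231 CPM in AclyM-KO libraries. The genotypes did not overlap at either time. This was a log2 fold change of -0.27 (SE 0.05, adjusted p = 0.000147, edgeR) at 3 h and -0.56 (SE 0.05, adjusted p = 1.15e-09, edgeR) at 24 h, both short of the fold threshold, and the difference between them was -0.29 (SE 0.07, adjusted p = 0.00512).

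C1qc, the C chain, was at 690, 648 and 674 CPM in control and 599, 560 and 583 CPM in AclyM-KO libraries at 3 h. At 24 h it was at 219.6, 225 and 199.7 CPM in control and 139, 128 and 135 CPM in AclyM-KO libraries. The genotypes again did not overlap. The log2 fold change was -0.21 (SE 0.05, adjusted p = 0.00488, edgeR) at 3 h and -0.68 (SE 0.05, adjusted p = 1.18e-10, edgeR) at 24 h, with a difference of -0.47 (SE 0.07, adjusted p = 5.42e-05). With all 13 libraries the 3 h change of C1qc did not pass (adjusted p = 0.0522, edgeR).

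At both times the estimated genotype change of the A chain was larger in size than that of the B chain. With so few libraries the test of their ratio could not give a p under 0.05. Per 100 counts of C1qb there were 11.6 ± 0.535 counts of C1qa in control and 9.57 ± 0.161 in AclyM-KO libraries at 3 h, and 17.1 ± 0.698 and 13.5 ± 0.538 at 24 h (SD, n = 3 each). The ranges did not overlap at either time, with a two-sided exact permutation p of 0.1 (adjusted p = 0.16 over the 8 ratios tested), which is the smallest p that 3 against 3 libraries can give. Per 100 counts of C1qb, C1qc gave 73.2 ± 1.36 in control and 76.4 ± 1.53 in AclyM-KO libraries at 3 h, and 64.3 ± 3.23 and 59.1 ± 0.692 at 24 h, with the same exact permutation p of 0.1 each time.

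**Figure D3:**
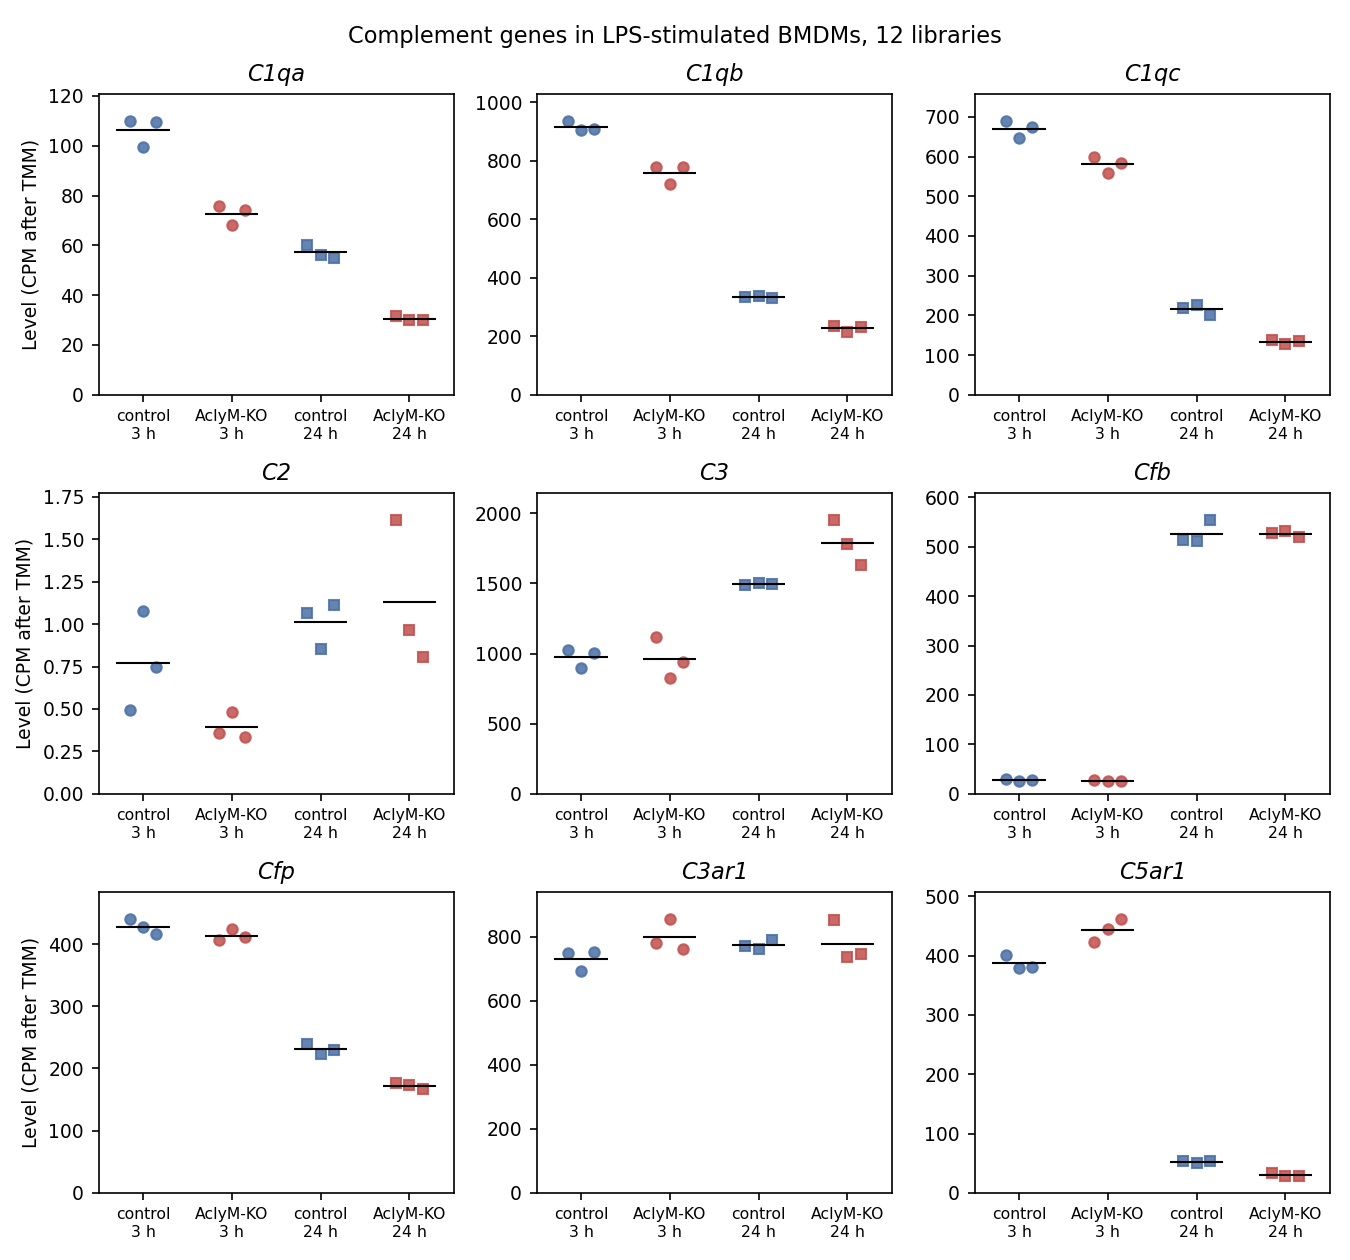
Level of each gene in CPM after TMM scaling (vertical axes, each starting at 0) in the 12 libraries, with control in blue, AclyM-KO in red, 3 h as circles, 24 h as squares and the group mean as a line. C1qa, C1qb and C1qc show AclyM-KO below control at both times, C5ar1 shows this at 24 h alone, and Cfb shows the time points apart and the genotypes together.

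Among the components of the alternative pathway, properdin was lower in AclyM-KO cells at 24 h and not at 3 h. Cfp was at 440.6, 427 and 417 CPM in control and 407, 424 and 411 CPM in AclyM-KO libraries at 3 h, which overlapped. At 24 h it was at 239.9, 224 and 230.1 CPM in control and 177, 173 and 167 CPM in AclyM-KO libraries, which did not overlap. With genotype the log2 change was -0.05 (SE 0.05, adjusted p = 0.54, edgeR) at 3 h and -0.42 (SE 0.05, adjusted p = 1.69e-07, edgeR) at 24 h, short of the fold threshold, and the difference was -0.37 (SE 0.07, adjusted p = 0.000324).

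Factor B did not separate the genotypes. Cfb was at 30.4, 26.2 and 27.6 CPM in control and 27.9, 25.1 and 25.6 CPM in AclyM-KO libraries at 3 h, and at 513, 512 and 554 CPM in control and 528, 533 and 519 CPM in AclyM-KO libraries at 24 h. The groups overlapped at both times. On the log2 scale the genotype difference was -0.10 (SE 0.06, adjusted p = 0.327, edgeR) at 3 h and 0.00031 (SE 0.05, adjusted p = 0.998, edgeR) at 24 h.

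C3 was at 1025, 899 and 1006 CPM in control and 1117, 827 and 938 CPM in AclyM-KO libraries at 3 h. At 24 h it was at 1489, 1500.1 and 1494 CPM in control and 1953, 1784 and 1633 CPM in AclyM-KO libraries. The groups overlapped at 3 h, and at 24 h all AclyM-KO libraries lay above all control libraries, with a wider spread among them. The log2 fold change was -0.02 (SE 0.10, adjusted p = 0.913, edgeR) at 3 h and 0.26 (SE 0.10, adjusted p = 0.124, edgeR) at 24 h, with a difference of 0.28 (SE 0.14, adjusted p = 0.267). Without AclyM-KO 3 h replicate 1, which had the highest C3 level at 3 h, that difference was 0.39 (adjusted p = 0.00462) and passed the test.

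C2 was close to the lower limit of these libraries, with 7 to 73 counts each. It was at 0.496, 1.08 and 0.748 CPM in control and 0.359, 0.481 and 0.337 CPM in AclyM-KO libraries at 3 h, and at 1.07, 0.853 and 1.11 CPM in control and 1.61, 0.965 and 0.806 CPM in AclyM-KO libraries at 24 h. The genotypes overlapped at 24 h, and at 3 h the AclyM-KO libraries lay just below the control ones. On the log2 scale the change was -0.97 (SE 0.41, adjusted p = 0.116, edgeR) at 3 h and 0.13 (SE 0.28, adjusted p = 0.813, edgeR) at 24 h, so a genotype effect was not detectable at this depth.

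The anaphylatoxin receptors behaved differently from each other. C5ar1, the receptor for C5a, was at 401, 379 and 381 CPM in control and 423, 445 and 462 CPM in AclyM-KO libraries at 3 h. At 24 h it was at 53.3, 50.7 and 54.3 CPM in control and 33.3, 27.9 and 28.2 CPM in AclyM-KO libraries. The AclyM-KO libraries thus lay above all control libraries at 3 h and below all of them at 24 h. The log2 fold change was 0.20 (SE 0.05, adjusted p = 0.0133, edgeR) at 3 h, short of the fold threshold, and -0.83 (SE 0.06, adjusted p = 6.86e-11, edgeR) at 24 h, 1.77-fold lower. The difference of -1.02 (SE 0.08, adjusted p = 2.95e-10) was the largest in size among the 9 genes apart from that of C2, 1.101 (SE 0.50, adjusted p = 0.176), which did not pass the test. With all 13 libraries the 3 h change of C5ar1 was 0.20 and did not pass (adjusted p = 0.0771, edgeR), and the 24 h change was -0.84 (adjusted p = 3.59e-08, edgeR).

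C3ar1, the receptor for C3a, was at 747, 694 and 751 CPM in control and 778, 855 and 761 CPM in AclyM-KO libraries at 3 h, and at 769.9, 760.1 and 788 CPM in control and 851, 735 and 746 CPM in AclyM-KO libraries at 24 h. The genotypes did not overlap at 3 h and overlapped at 24 h. Its log2 fold change was 0.13 (SE 0.05, adjusted p = 0.12, edgeR) at 3 h and 0.01 (SE 0.05, adjusted p = 0.945, edgeR) at 24 h. Per 100 counts of C3ar1 there were 53.0 ± 2.01 counts of C5ar1 in control and 55.7 ± 4.47 in AclyM-KO libraries at 3 h, which overlapped (two-sided exact permutation p = 0.5). At 24 h there were 6.83 ± 0.137 and 3.83 ± 0.0685 (SD, n = 3), which did not overlap (exact permutation p = 0.1, the smallest possible).

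The comparison of time points asks how these genes moved between early and late LPS within a genotype. It uses the same 12 libraries as the comparison of the genotypes. In control cells 6 of the 9 genes were called, against 40.4% of all genes, of which Cfb was higher (20.9% of all genes were) and the others were lower. In AclyM-KO cells 8 of the 9 were called, against 42.0% of all genes, of which Cfb, C2 and C3 were higher (21.9% of all genes were) and the others were lower. The median log2 fold change was -0.89 over the 9 genes and 0.04 over all genes in control cells, and -1.25 and 0.04 in AclyM-KO cells.

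Cfb rose in both genotypes, by 4.23 on the log2 scale in control cells (SE 0.06, adjusted p = 4.27e-31, edgeR) and by 4.33 in AclyM-KO cells (SE 0.06, adjusted p = 3.21e-31), that is 18.8-fold and 20.1-fold. The genotype-by-time difference was 0.10 (SE 0.08, adjusted p = 0.501). C2, its neighbour on chromosome 17, went from 0.774 ± 0.291 to 1.01 ± 0.139 CPM in control cells (SD, n = 3), a change of 0.41 (SE 0.32, adjusted p = 0.246, edgeR). In AclyM-KO cells it rose from 0.392 ± 0.0778 to 1.13 ± 0.428 CPM, by 1.51 (SE 0.37, adjusted p = 0.00056, edgeR), from 7 to 11 counts per library at 3 h. This does not show that the genotypes differ in the change of C2. The test of that difference, given above with C5ar1, did not pass. For each 100 counts of Cfb there were 2.82 ± 1.24 counts of C2 in control 3 h libraries and 0.192 ± 0.022 in control 24 h libraries.

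C3 rose in AclyM-KO cells, by 0.90 (SE 0.10, adjusted p = 8.47e-06, edgeR), and changed by 0.61 in control cells (SE 0.10, adjusted p = 0.000197, edgeR), under the fold threshold. This does not show that the genotypes differ in the change, since the test of that difference gave the adjusted p of 0.267 above. The change of C3ar1 with time was 0.08 in control (SE 0.05, adjusted p = 0.18, edgeR) and -0.04 in AclyM-KO cells (SE 0.05, adjusted p = 0.525).

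C5ar1 fell furthest, by 2.87 on the log2 scale in control cells (SE 0.06, adjusted p = 2.34e-27, edgeR) and fell by 3.90 in AclyM-KO cells (SE 0.06, adjusted p = 4.44e-30), that is 7.33-fold and 14.9-fold. C1qc fell by 1.64 and 2.11, C1qb by 1.46 and 1.74, and C1qa by 0.90 and 1.25 in control and AclyM-KO cells (SE 0.05 to 0.06, all called by edgeR). Cfp fell by 0.89 and 1.26 (SE 0.05 for both). For these 5 genes the fall was steeper in AclyM-KO than in control cells by the interaction test given above.

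**Figure D4:**
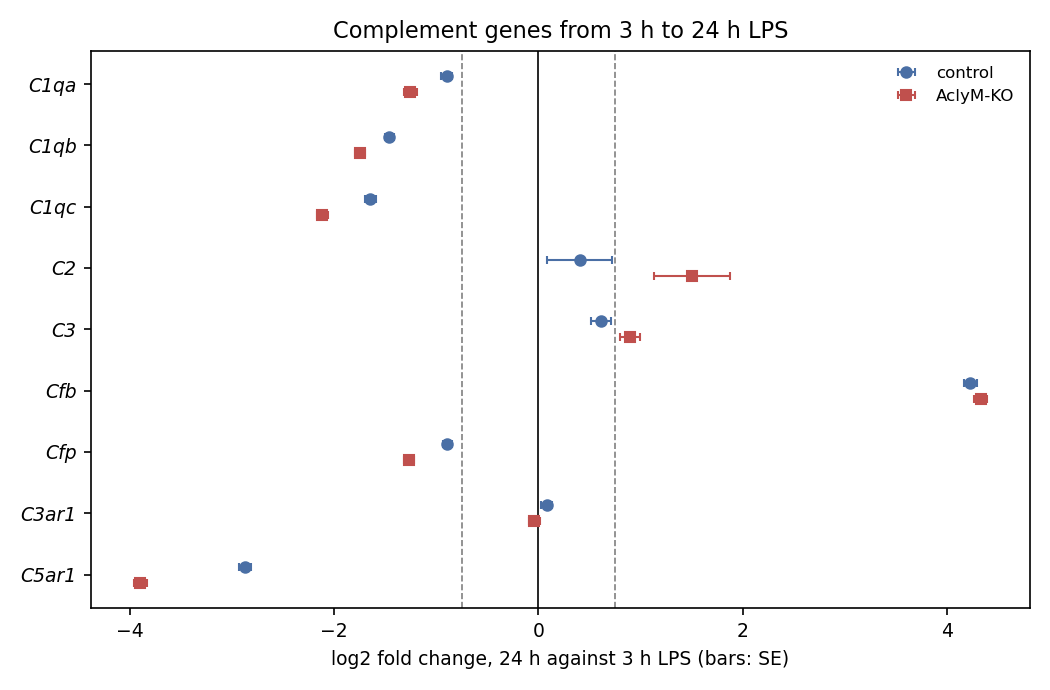
Log2 fold change of 24 h against 3 h LPS (horizontal axis) for each gene in control (circles) and AclyM-KO cells (squares), with standard errors as bars and the fold threshold of 0.75 as dashed lines, from 12 libraries. Cfb lies at 4.23 and 4.33, C5ar1 at -2.87 and -3.90, and C3ar1 near 0.

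Levels can be compared between genes only per length, here as CPM per kilobase of the counted transcript. In control cells at 3 h, C1qb led with 842 ± 16.4 CPM per kilobase, followed by C1qc with 557 ± 17.8, Cfp, and C3 with 190.1 ± 13.3, while Cfb with 10.3 ± 0.788 stood next to last, before C2 (SD, n = 3). C3ar1 and C5ar1 were the only neighbours in that order whose libraries overlapped. At 24 h in control cells C1qb (307 ± 3.801), C3 (291 ± 1.05) and Cfb (193 ± 8.89) led, and C3ar1 (179 ± 3.27) and C1qc (179 ± 11.1) overlapped. In AclyM-KO cells at 24 h the order at the top was C3 (348 ± 31.2), C1qb (209 ± 9.11), then Cfb (193 ± 2.46) and C3ar1 (181 ± 14.95), the latter pair overlapping. C3 thus stood above C1qb in AclyM-KO cells at 24 h and below it in the other groups, without overlap between the genes in any group.

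For each gene, the genes with the most similar pattern were those with the smallest root mean square difference in centred log2(CPM + 1) over the 12 libraries, among 6294 genes with a mean of at least 10 CPM. This is a description of 12 libraries in 4 groups, so that likeness largely reflects the group means. C1qb was nearest to Pltp, a phospholipid transfer protein (difference 0.0737, against a spread of 0.8286 of C1qb itself), then Abcc3 and Frmd4b. C1qa was nearest to Adgre5, Cd4 and Arhgap15 (0.159 to 0.183), and C1qc to Rnf145, Dock1 and Tmem123 (0.142 to 0.151). Cfb was nearest to Ms4a4c, Ly75 and the acute-phase gene Saa3 (0.19 to 0.227, against a spread of 2.12). C3 was nearest to Fam120b, Clip2 and Ankle2, and Cfp to Actb, Mbnl1 and Lcp1. C5ar1 was nearest to Marcksl1, the prostaglandin E receptor gene Ptger4 and Actn1 (0.252 to 0.264, against a spread of 1.70). The nearest genes of C3ar1 (Rnf10, Mtdh, Chuk) differed from it by 0.0643 to 0.0661, close to its own spread of 0.0807, and those of C2 were Lrig2, Rbbp5 and Hmgxb4.

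The rest of the complement system was taken from a list of 55 further genes, of which 9 had 0 counts in all libraries and 22 passed the filter on low counts. Neither genotype comparison moved many of them. At 3 h edgeR called 0 of 22, against 2.01% of all genes, with 5 at an adjusted p under 0.05 and any fold, against 15.4%, and DESeq2 called 0. Leaving out AclyM-KO 3 h replicate 1 or replicate 2 gave 1. At 24 h Cd55, the membrane protein that speeds decay of the C3 convertases, was the 1 gene of 22 called, against 1.38% of all genes, at -0.89 (SE 0.19, adjusted p = 0.00155, edgeR), and 2 genes were called without AclyM-KO 24 h replicate 2. The genotype effect differed between times for 3 of 22, against 9.59% of all genes, by the interaction test of edgeR. For all 3 the log2 fold change was lower at 24 h than at 3 h. The difference was -0.96 for Cd55 (SE 0.24, adjusted p = 0.00812) and -0.25 for the shared complement receptor beta chain Itgb2 (SE 0.07, adjusted p = 0.0172). It was -0.23 for Cd93 (SE 0.07, adjusted p = 0.0268), a surface protein described in the past as a C1q receptor. The number called was 1 with all 13 libraries and 1 without AclyM-KO 24 h replicate 3.

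Between 3 h and 24 h, 14 of the 22 were called in each genotype, against 40.4% of all genes in control and 42.0% in AclyM-KO cells, with 2 higher and 12 lower in both. The higher ones were Vsig4 and C1rl. Vsig4, the complement receptor of the immunoglobulin family on tissue macrophages, was at 2.11 in control (SE 0.48) and 1.18 in AclyM-KO cells (SE 0.38). It had only 1 to 5 counts in control 3 h and 6 to 11 in AclyM-KO 3 h libraries, against 13 to 38 and 21 to 24 at 24 h. Vsig4 passed the filter on low counts through the 24 h libraries, which favours a call as higher at 24 h. C1rl was at 1.77 (SE 0.12) in control and 1.42 (SE 0.13) in AclyM-KO cells. The tested membrane regulators Cd55, Cr1l and Cd59a fell in both genotypes, as did Cd109, which was listed with them. Among receptors, C5ar2, the other C5a receptor, fell by 1.67 in control (SE 0.22) and by 2.17 in AclyM-KO cells (SE 0.25), and Itgam, Itgax, Cd93 and Lrp1 also fell. Fcna and Colec12, recognition molecules related to the lectin pathway, were lower at 24 h as well. The median log2 fold change of the 22 genes was -0.85 in control and -0.80 in AclyM-KO cells, beside 0.04 over all genes in each.

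**Figure D5:**
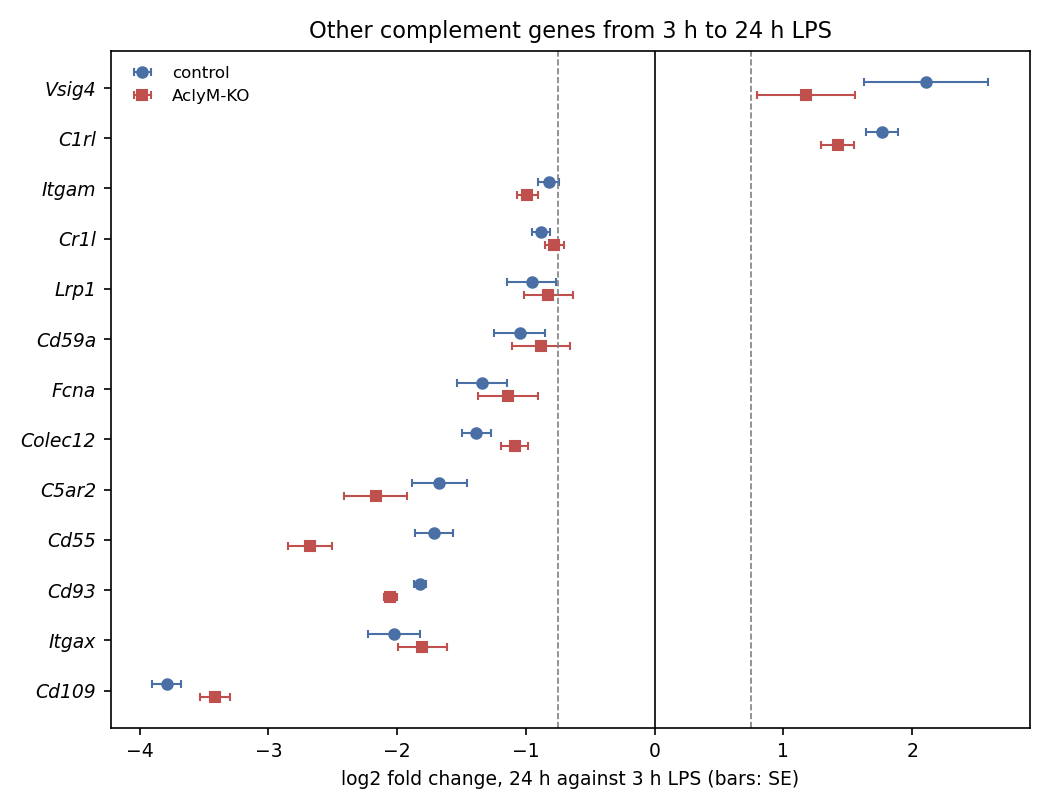
Log2 fold change of 24 h against 3 h LPS (horizontal axis) for 13 of the further complement genes called in this comparison, in control (circles) and AclyM-KO cells (squares), with standard errors as bars and the fold threshold of 0.75 as dashed lines. Vsig4 and C1rl are the genes above 0.

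Markers of the labelled cell type were present, and 8 of 8 macrophage markers passed the filter. Their summed level was 9088 to 9208 CPM in control 3 h, 6147 to 7017 in AclyM-KO 3 h, 5963 to 6256 in control 24 h and 4447 to 4548 in AclyM-KO 24 h libraries. Lyz2 made up that difference between genotypes: without it, the sum of the other 7 was 3821 to 3987, 3874 to 4073, 3571 to 3734 and 3502 to 3688 CPM. Of the 8, only Lyz2 was called between genotypes. The 9 neutrophil markers summed to 7.74 to 10.7 CPM at 3 h and 2.58 to 3.66 CPM at 24 h over both genotypes, with Ly6g and Retnlg at 0 counts. The summed markers of dendritic cells, monocytes, B and T cells, fibroblasts and erythroid cells were each under 3 CPM in every library, with Hba-a1 at 0. The part of Lyz2 and these markers in the complement results was not tested.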

How the data were processed

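The authors prepared strand-specific mRNA libraries (KAPA HyperPrep) for 13 samples, aligned the reads with STAR 2.5.2b to mm10 after CASAVA 1.8.2, filtered them with SAMtools and used HOMER to count them on RefSeq transcripts. The deposited table of 35745 transcripts holds raw counts, not normalized. The strand and isoform settings of the counting are not given in the sources used here. Of the transcripts, 35440 were matched to a symbol through RefSeq's gene table and 35628 after GENCODE M21. Transcripts without a symbol took 1.13% of counts and stayed in the library sizes.

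Groups came from the sample labels. Counts were tested with edgeR 4.0.16 in R 4.3.3 (TMM, filterByExpr, robust quasi-likelihood fit of all 4 groups without the library of 34467 counts), with Benjamini-Hochberg adjustment over 19621 rows of 11942 genes. The design used edgeR where the study's methods name DESeq2, which was an alternative (1.42.0), as were limma-voom (limma 3.58.1), other scalings and filters, all 13 libraries, a replicate block and leaving out each replicate. The code was tested on simulated data. Ratios were tested with exact permutation tests in scipy 1.17.1. Replicates differed by more than counting noise (chi-square per degree of freedom 2.66 to 11.9). The study also describes normalized values, which were not used here.

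The 9 genes, the list of 55 further complement genes, the markers and the motifs were chosen with earlier results of these data known. Genes named are these, Acly, Lyz2, genes overlapping the 9, listed complement genes that were called, and the 3 nearest patterns of each of the 9. Some of the listed genes are not reported here.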

Additional observations from a re-analysis of the deposited data

Results flagged for a closer look

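In the group labelled control 24 h, 1 of 4 libraries stood far from the rest for 6 of the 9 genes. The gap between replicate 1 and its nearest neighbour, as a share of the range of the 4 CPM values, was 0.914 for C1qb, 0.903 for C1qc, 0.986 for C3, 0.920 for Cfb, 0.858 for C3ar1 and 0.975 for C5ar1. Chance passes this limit in about 1 in 20 groups of 4 values with equal spread, which these 4 libraries do not have. That library holds 34467 counts, so that 1 count is worth 22.4 CPM and its counting error is far larger than that of the others. For C1qb and C3ar1 the Poisson intervals of its counts held the control 24 h level. Those for Cfb, C5ar1, C1qc and C3 did not, as given above. The part of this depth in the gaps was not tested.

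The genotype effect differed between 3 h and 24 h, by the interaction test of edgeR, for 5 of the 9 genes: C1qa by -0.35, C1qb by -0.29, C1qc by -0.47, Cfp by -0.37 and C5ar1 by -1.02 on the log2 scale. It also differed for Cd55 (-0.96), Itgb2 (-0.25) and Cd93 (-0.23), 3 of the 22 further genes tested. The same test called 9.59% of all genes. With all 13 libraries 1 of the 22 was called, and 1 without AclyM-KO 24 h replicate 3. Among the 9 genes, C5ar1 had values above 0 at 3 h (0.20) and below 0 at 24 h (-0.83).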

How the results depend on the processing

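Of the 976 values of the 9 genes under the alternatives, 940 kept their direction and their side of the thresholds. The number of the 9 genes called was within 1.5 times its value under each alternative of scaling, filter, tool and library choice, and changed with the fold threshold: without it, 4 were called at 3 h and 5 at 24 h, and with a log2 threshold of 1, 0 were called at 24 h. Of the 22 further genes, 5 at 3 h and 3 at 24 h were called without the threshold, 0 at 24 h with a threshold of 1, and 1 for the interaction with all 13 libraries. Leaving out each library in turn gave 0 to 1 of the 22 at 3 h, 1 to 2 at 24 h and 1 to 4 for the interaction, and 5 to 6 of the 9 genes for the interaction.

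Direction turned where a value was near 0, with adjusted p of 0.268 or more. At 24 h the genotype change of Cfb was -0.0302 with upper quartile scaling, -0.024 without a filter, -0.00247 with at least 10 counts in every library, -0.00416 with limma-voom, -0.0118 with only the groups compared, -0.00588 with 1 row per gene and -0.0207 to 0.0385 without each library. That of C3ar1 was -0.0228 with upper quartile scaling, -0.0154 without a filter, -0.00401 with only the groups compared, -0.00127 with the replicate block and -0.0616 to 0.0469 without each library. Without each library, C2 at 24 h ran from -0.223 to 0.325, C3 at 3 h from -0.144 to 0.0772, and the change of C3ar1 with time in AclyM-KO cells from -0.108 to 0.00112, which was 0.0648 with upper quartile scaling. The C3 interaction passed without a filter on low counts (0.26, adjusted p = 0.0248, edgeR). Upper quartile scaling moved the median change of all genes with time from 0.04 to 0.16 in control cells. CPM over total counts, without TMM factors, moved 29 of the group levels by more than 1 SD.

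Replicate numbers are shared between groups, but libraries of 1 number did not deviate together (correlations -0.137 to 0.184), so the numbers were not taken as pairs. With the replicate block, 3 of the 9 genes were called at 24 h, C1qc being added at -0.75. Over all genes 228 were called at 3 h, 144 at 24 h and 845 for the interaction, against 240, 165 and 1145. No other group has a replicate 4, so in this fit control 24 h replicate 4 was taken up by its own block. That left control 24 h replicates 2 and 3, and replicate 4 had the lowest C1qc level of these libraries. Not every library correlated best with its own number.

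Among the 9 genes, C2 with 7 to 73 counts was the most limited by depth, as was the library of 34467 counts among the libraries. Vsig4, one of the further complement genes called, held 1 to 38 counts.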
